A study of Bos taurus with 6 samples.

Results

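ABCA6, ABCA9 and ABCA10 lie side by side on cattle chromosome 19 and gave 37 of the 14274 circular RNAs (circRNAs) found in the subcutaneous fat of Qinchuan cattle. The members are all circRNAs whose annotated gene names include 1 of these 3 symbols exactly. There were 35 single-gene circles, annotated to 1 gene, and 2 cross-gene circles, annotated to a pair of neighbouring genes. The genes were selected on results of the same comparison of ages that is described here, in which a cross-gene circle stood at 0 in every calf and was read in every adult. The values of the members at the 2 ages are therefore given as a description, without a test.

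Fat was taken after slaughter from Qinchuan cattle of 2 ages, snap-frozen and sequenced as 6 libraries, 3 from calves of 6 months and 3 from adults of 24 months. No other treatment, genotype, diet or sex is given, and the age groups share breed and tissue. Nothing in the labels beyond the sample names says that the 3 samples of an age came from separate animals, so p-values measure the spread between these samples. Ribosomal RNA was removed from all libraries. The protocol also describes RNase R, an enzyme that degrades linear RNA and spares circles, but whether these 6 libraries received it is not certain.

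ABC transporters are membrane proteins that use ATP to move substrates across membranes. The A subfamily holds large, full-length transporters that mostly handle lipids, such as ABCA1, which exports cholesterol and phospholipid to apolipoproteins. ABCA6, ABCA9 and ABCA10 belong with ABCA5 and ABCA8 to a group of closely similar genes arranged head to tail in mammals, and their transcripts respond to cholesterol loading in human macrophages. A circRNA forms when the end of a downstream exon is spliced back to the start of an upstream one. A junction read crosses that back-splice. The deposited table also gives non-junction reads for each circle, without a definition.

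Calf libraries held 35616 to 39573 junction reads and adult libraries 37946 to 47298. Levels are junction reads scaled to 1000000 junction reads of the library (CPM), and the floor of 3 reads used for a circle at 0 corresponds to 63.4 to 84.2 CPM. Values of an age are listed in the order of its libraries 1, 2 and 3. The smallest count above 0 in the table is 2, and a circle with fewer reads in a library stands at 0. The cluster had 546 of 237621 junction reads, 0.230% of the total. Of the 37 circles, 29 (78.4%) were read in 1 library only, against 59.2% of all circRNAs, and 28 had 2 or 3 reads in all. At this depth a circle missing from a library was not detectable, which does not show that it was absent. In whole tissue, fewer cells of a type and less RNA per cell cannot be told apart.

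The 3 genes are read on the + strand, in the order ABCA10 (ENSBTAG00000006937), ABCA6 (ENSBTAG00000006921) and ABCA9 (ENSBTAG00000006896). The circle from ABCA10 into ABCA6, novel_circ_0004897, runs from 62003742 to 62089479, a span of 85737 bases. The circle from ABCA6 into ABCA9, novel_circ_0004909, runs from 62089879 to 62149868, a span of 59989 bases. They do not overlap and are 400 bases apart. The gap is the intron between ABCA6 exons 34 and 35 if the circles end at exon ends. The 35 single-gene circles are much shorter, from 653 to 16403 bases with a median of 5158, close to the median of 6076 over all single-gene circRNAs. Positions are as the authors' files give them. No source used here gives the genome build or says whether starts count from 0 or 1.

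**Figure D1:**
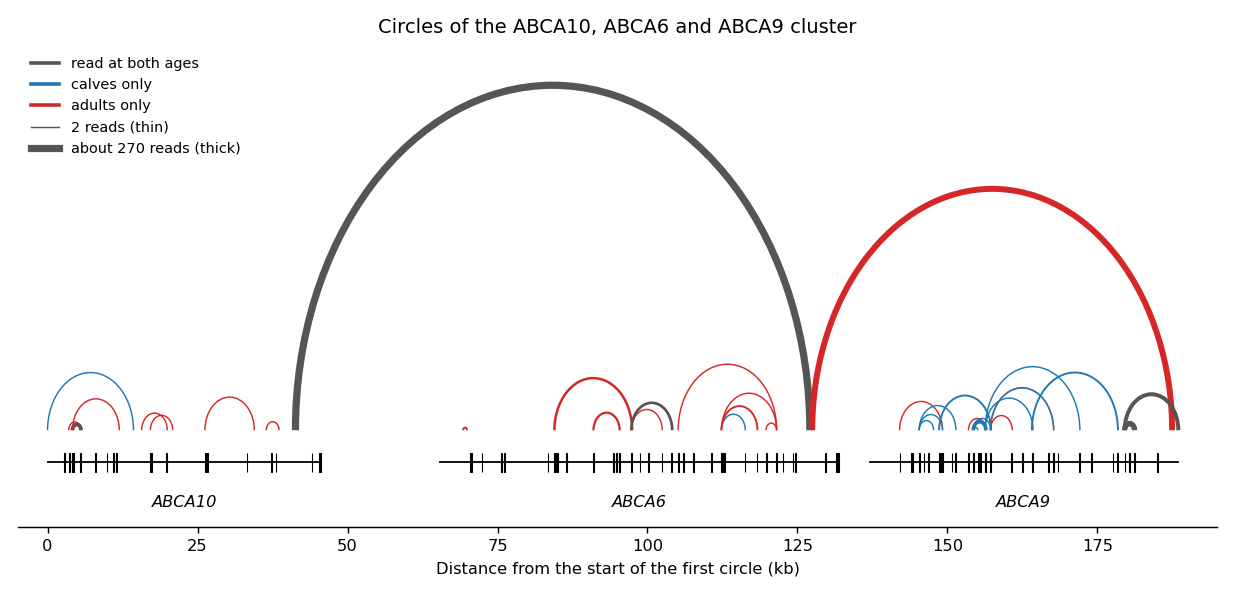
Arcs join the start and end of each of the 37 circles along the cluster, in kb from the start of the leftmost circle. Arc width grows with total junction reads, and colour gives the ages at which a circle was read. Ticks under each gene mark exons with both ends listed or implied in the deposited annotation, so the exons that the cross-gene circles join have no tick. The 2 cross-gene arcs are the widest spans and lie on either side of the same ABCA6 intron.

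The cross-gene circles held most of the reads of the cluster, 368 of 546 (67.4%), although they are 2 of 37 circles. Their share in the calf libraries was 68.7% (95% exact Clopper-Pearson interval 57.6 to 78.4), 61.3% (50.6 to 71.2) and 50.9% (37.3 to 64.4). In adults 1 to 3 it was 74.3% (64.6 to 82.4), 67.7% (59.0 to 75.5) and 75.9% (65.0 to 84.9). The ages overlapped, since calf 1 lay above adult 2, and calf 3 was the lowest library. The intervals cover counting error only, not the spread between samples. They may be too narrow, because duplicate reads cannot be told from separate molecules. Circles annotated to more than 1 gene were 142 of all 14274 circRNAs (0.995%). They had a median of 37.5 reads against 4 for single-gene circRNAs and a median span of 32230 bases. Among those 142 circles novel_circ_0004897 ranked 21 by reads and novel_circ_0004909 ranked 45.

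The most abundant member was the ABCA10 to ABCA6 circle, novel_circ_0004897, which was read in all 6 libraries and ranked 111 of all circRNAs with 273 reads. It had 57, 57 and 29 junction reads in the calf libraries and 52, 51 and 27 in the adult libraries. In CPM these were 1532, 1440 and 814 in calves and 1370, 1078 and 676 in adults. Libraries calf 3 and adult 3 were the lowest of their age and the groups overlapped. The mean was 1262 ± 390 CPM for the calves against 1041 ± 349 CPM for the adults (SD, n = 3), and the edgeR log2 change, adult minus calf, was -0.21 ± 0.35 (SE). It was 0.07 without adult 3.

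The neighbouring ABCA6 to ABCA9 circle, novel_circ_0004909, was read in adults alone. It had 0 reads in each of the 3 calves and 23, 39 and 33 reads in the adult libraries, which is 606, 825 and 826 CPM. All adults stood far above the calf floor, with adult 1 the lowest of them. The adult mean of 752 ± 126 CPM (SD, n = 3) was at least 9.38-fold higher than the mean calf floor of 3 counts per library. In the authors' deposited table of differing circRNAs it is the only member, among 33 circRNAs listed higher and 48 listed lower in adults, with group means of 29.9 and 0 scaled reads. This circle and its counts of 0 in the calves are what the genes were selected on.

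The third member above 20 reads was novel_circ_0004925, a short circle of ABCA9 exons 29 to 31 (62141946 to 62143602, 1656 bases, of which 331 are exon). It had 7, 11 and 13 reads in the calf libraries and 6, 17 and 3 in the adult libraries. The CPM were 188, 278 and 365 in calves and 158, 359 and 75.1 in adults, so adult 2 lay among the calves and adult 3 was the lowest library. The mean was 277 ± 88.5 CPM for the calves against 198 ± 146 CPM for the adults (SD, n = 3). The log2 change of -0.35 ± 0.59 (SE) was -1.10 without adult 2 and 0.07 without adult 3.

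These 3 circles were the only members that passed the filter on low counts, and 34 members with 2 to 17 reads each were not tested. In the fit of all circRNAs 126 of 663 circRNAs tested (19.0%) passed the edgeR quasi-likelihood test at an adjusted p of 0.05, with a median log2 change of 0.00 over all of them. Of the 3 members 1, novel_circ_0004909, was among them. It was also the 1 member of the 3 whose ages did not overlap in CPM, as in 261 of the 663 (39.4%). Since the members were selected on this contrast, nothing is read from these counts.

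**Figure D2:**
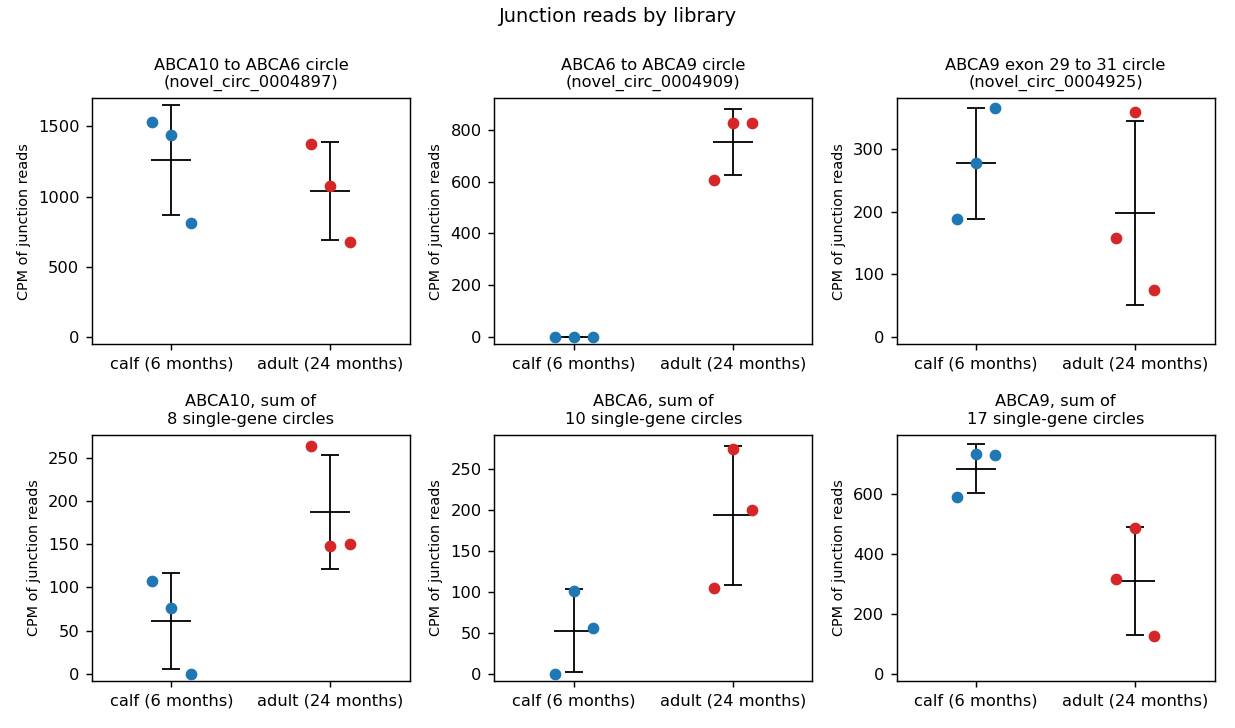
Junction reads in CPM (y axes, from 0) for each calf (blue) and adult (red) library, with the mean and SD of each age as bars, for the 3 members with 20 or more reads and for the summed single-gene circles of each gene. The ABCA6 to ABCA9 circle is at 0 in the 3 calves and between 606 and 826 CPM in the adults, whereas the ABCA10 to ABCA6 circle overlaps between ages.

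The single-gene circles of the 3 genes did not share a direction. Those of ABCA10, 8 circles with 30 reads, had 4, 3 and 0 reads in the calf libraries and 10, 7 and 6 in the adult libraries, a mean of 61.1 ± 55.2 CPM in calves and 187 ± 66.1 in adults (SD, n = 3). Those of ABCA6, 10 circles with 31 reads, had 0, 4 and 2 reads in calves and 4, 13 and 8 in adults, or 52.4 ± 50.6 and 193 ± 84.9 CPM (SD, n = 3). Those of ABCA9, 17 circles with 117 reads, had 22, 29 and 26 reads in calves and 12, 23 and 5 in adults, or 685 ± 81.0 and 309 ± 181 CPM (SD, n = 3).

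In all 3 sums the ages did not overlap in CPM, with adults above calves for ABCA10 and ABCA6 and below them for ABCA9. The ages did not overlap for 241 of 719 host genes tested (33.5%). That share is over genes that passed the filter on low counts, which ABCA6 and ABCA10 did not. The margin was narrow for ABCA6, at 101 CPM in calf 2 and 105 CPM in adult 1, with 4 reads in each. ABCA9 alone had enough reads to pass the host gene filter, with a log2 change of -1.04 ± 0.43 (SE).

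The circles behind these sums divided by age as follows, largely on the same reads. Of the ABCA9 circles 11 were read in calves only, 4 in adults only and 2 at both ages. Of the ABCA6 circles 1 was read in calves only, 8 in adults only and 1 at both ages, and of the ABCA10 circles the numbers were 1, 6 and 1. Over all 14274 circRNAs 30.4% were read in calves only, 38.3% in adults only and 31.3% at both ages. Of the 37 circles 24 rest on 2 reads in 1 library. The 34 single-gene circles under 20 reads overlapped between the ages as a sum, with 521 ± 106 CPM for the calves against 492 ± 80.5 CPM for the adults (SD, n = 3).

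Below 20 reads, 3 single-gene circles were read in more than 2 libraries or had 10 reads or more, and they are named here after their values were seen. An ABCA9 circle that shares its start in exon 29 with novel_circ_0004925 but runs on to 62150897, novel_circ_0004926, had 3, 4 and 4 reads in the calf libraries and 4, 2 and 0 in the adult libraries. The circle of ABCA10 exons 6 and 7 (61966575 to 61967997), novel_circ_0004891, had 2, 3 and 0 reads in calves and 4, 3 and 4 in adults. The circle of ABCA9 exons 12 to 15 (62116722 to 62118834), novel_circ_0004916, had 6 and 7 reads in calves 1 and 2 and 0 in calf 3 and all adults. The last of these was thus seen in 2 of 3 calves and in no adult.

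The 37 circles of the cluster together had 83, 93 and 57 reads in the calf libraries and 101, 133 and 79 in the adult libraries. The mean was 2060 ± 403 CPM for the calves against 2483 ± 445 CPM for the adults (SD, n = 3), and the ages overlapped. Without novel_circ_0004909 the adults had 2056, 1987 and 1151 CPM, a mean of 1731 ± 504 (SD, n = 3), below the calf mean. The ages overlapped here too, since calf 3, at 1600 CPM, lay below adult 1 and adult 2. The number of circles detected was 9, 9 and 8 in calves and 11, 14 and 9 in adults, and adult 2, with the most circles, was also the deepest library.

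Back-splice sites were reused along the genes. For 24 of the 35 single-gene circles both ends fell on exon boundaries that the deposited annotation gives, and these circles spanned 2 to 10 exons with a median of 5. A start or end was shared with another member by 25 of the 37 circles, through 8 shared starts and 6 shared ends. The starts of ABCA6 exon 23 (62074749) and ABCA9 exon 4 (62107706) and the end of ABCA6 exon 28 (62083942) each served 3 circles. The most used shared site was the start of ABCA9 exon 29 at 62141946, which carried 74 reads in novel_circ_0004925 and novel_circ_0004926. The small novel_circ_0004918 covers a single ABCA9 intron, intron 12, and 657 bases.

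Both cross-gene circles begin and end with stretches of the same sizes. Each begins with a stretch of 141 bases before its first listed intron and ends with a stretch of 120 bases after its last. In novel_circ_0004897 these are ABCA10 exon 34 (62003742 to 62003883) and ABCA6 exon 34 (62089359 to 62089479). In novel_circ_0004909 they are ABCA6 exon 35 (62089879 to 62090020) and ABCA9 exon 35 (62149748 to 62149868). For each of these exons the deposited annotation gives only the limit at the intron inside the circle. The outer limit is taken from the end of the circle, so the lengths of 141 and 120 bases rest on it. This pair of lengths occurred in no other of the 136 multi-gene circRNAs with listed introns, nor in any other of all 11192 circRNAs with listed introns.

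The exon sizes followed one another along the 3 genes when the genes were lined up at this 120 and 141 base pair. Leaving out the exons used to line them up, ABCA6 and ABCA9 had the same length in 20 of 28 exons compared, and 25 were within 6 bases. ABCA6 and ABCA10 matched in 11 of 17 exons, with 14 within 6 bases, and ABCA9 and ABCA10 in 10 of 13, with all 13 within 6 bases. In this register each cross-gene back-splice joins the exon with the place of ABCA6 exon 34 to the exon with the place of ABCA6 exon 35, the same pair that flanks the 400 base gap inside ABCA6. No source used here says how reads were assigned among these similar genes, so the split of reads between the 3 genes is uncertain. Its part in the cross-gene counts was not tested. Whether those counts hold reads of the linear splice between ABCA6 exons 34 and 35 was not tested either.

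**Figure D3:**
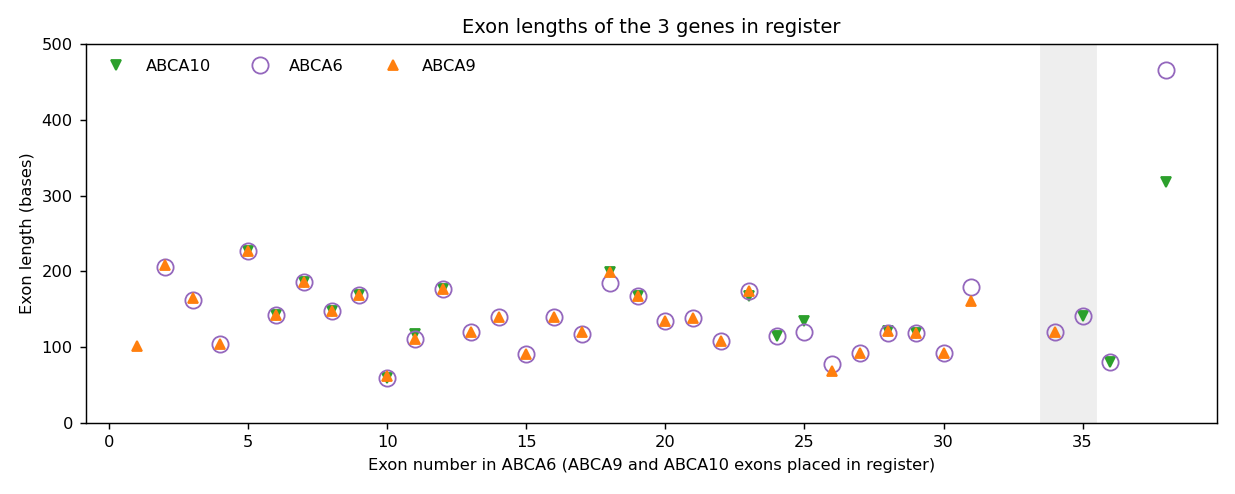
Exon length in bases (y axis) against exon number in ABCA6 (x axis) for ABCA6 (circles), ABCA9 (upward triangles) and ABCA10 (downward triangles), with the exons of ABCA9 and ABCA10 placed in register. Most symbols coincide, with ABCA6 and ABCA9 equal in 20 of 28 exons outside the shaded pair, which marks the 120 and 141 base exons joined by the cross-gene circles.

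The deposited list of exons and introns under each circle leaves out short exons. No listed exon is shorter than 150 bases in 15519 entries of the whole table. The members span unlisted exons of 59 to 148 bases, 112 when an exon is counted again for each circle that spans it. All 37 members list introns, and in 35 of them the deposited spliced length is the sum of the listed features. The spliced lengths of 62555 bases for novel_circ_0004897 and 51552 for novel_circ_0004909 are thus not lengths after removal of introns.

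Non-junction reads of the ABCA10 to ABCA6 circle differed between ages while its junction reads overlapped. They numbered 1295, 934 and 1021 in the calf libraries and 2382, 6076 and 3513 in the adult libraries. Every adult was above every calf, with adult 2 the highest. Over the span this is 10.9 to 15.1 non-junction reads per kb in calves and 27.8 to 70.9 in adults.

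To set this beside other circles, the reads were scaled to the sum of non-junction reads over 1070 circRNAs, those that every library detected and whose non-junction reads averaged 10 or more. The circle then had 2387, 2060 and 2453 per 1000000 in the calf libraries and 7148, 9655 and 6869 in the adult libraries, a mean of 2300 ± 210 in calves and 7890 ± 1534 in adults (SD, n = 3). Unscaled, its log2 ratio of adult to calf means was 1.88, above 99.6% of the 1070 circRNAs, whose median was 0.14. Ages that did not overlap in non-junction reads were found for 120 of these 1070 (11.2%).

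The share of junction reads among junction and non-junction reads of novel_circ_0004897 was 4.22%, 5.75% and 2.76% in the calf libraries and 2.14%, 0.832% and 0.763% in the adult libraries. The mean was 4.24 ± 1.50% in calves and 1.24 ± 0.774% in adults (SD, n = 3), and every adult was below every calf. Ages that did not overlap in this share were found for 159 of the 1070 circRNAs (14.9%). Over the 6 libraries the share was 1.76%, and 17.0% of the 1192 circRNAs read in all libraries had a lower one. Their median was 7.25%, and that of the multi-gene circRNAs among them was 9.01%. The share is not scaled to span, which was 85737 bases for this circle, and the circRNAs compared are of any span.

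For novel_circ_0004909 non-junction reads are given for the adults only, where the circle was detected. They were 2129, 5387 and 2918 in the adult libraries, or 35.5, 89.8 and 48.6 per kb, and the junction shares were 1.07%, 0.719% and 1.12%. Scaled in the same way as for novel_circ_0004897 they were 6389, 8560 and 5705 per 1000000. On that scale adult 2 was the highest and adult 3 the lowest for both circles, whereas unscaled adult 1 was the lowest. What non-junction reads of this stretch were in calves was not analysed here. Single-gene ABCA9 circles other than novel_circ_0004925 lie inside the same stretch, but for the end of novel_circ_0004926. They had 14.9 to 79.4 non-junction reads per kb in calves (15 values, median 38.4) and 18.7 to 72.6 in adults (6 values, median 53.5). With novel_circ_0004925, which lies inside this stretch too, the order of the medians turned, to 33.8 in calves (18 values, 0.604 to 79.4) and 24.6 in adults (9 values, 3.02 to 72.6). These values come only from libraries in which a circle was detected, and the ranges of the ages overlap.

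In single-gene ABCA6 circles the non-junction reads were 8.36 and 16.1 per kb in calves (2 values) and 25.9 to 153 in adults (10 values). In single-gene ABCA10 circles they were 30.2 to 36.6 per kb in calves (3 values) and 13.2 to 66.5 in adults (9 values). The ranges of the ages are thus apart in ABCA6, although with 2 calf values, and overlap in ABCA10. These are values of single circles, several from the same library, and not replicates of an age. Only 1 ABCA6 circle was read at both ages, novel_circ_0004903, with 8.36 per kb in calf 2 and 78.6 in adult 2. None of these values is scaled to depth, and circles of 1 gene may share reads where they overlap.

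The ABCA9 exon 29 to 31 circle stood apart from the other members in its junction share. Its non-junction reads were 24, 13 and 1 in the calf libraries and 5, 24 and 5 in the adult libraries. The junction share was 22.6%, 45.8% and 92.9% in calves and 54.5%, 41.5% and 37.5% in adults, with no separation of the ages. Over all libraries it was 44.2%, a share that 86.1% of the 1192 circRNAs read in all libraries lay below. In the other single-gene circles the share ran from 0.256% to 9.76% (45 circle and library values, median 1.20%). Shares over a short span and few reads are imprecise, as calf 3 with 13 junction reads and 1 non-junction read shows.

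Summed over the cluster, junction reads made up 2.10%, 4.10% and 2.76% of junction and non-junction reads in the calf libraries and 1.50%, 0.910% and 1.0% in the adult libraries. All calves were above all adults. In single circRNAs, not sums, the ages did not overlap in this share for 159 of 1070 (14.9%). Over single-gene circles alone the shares were 0.998%, 2.81% and 2.76% in calves and 1.21%, 1.40% and 1.35% in adults, so calf 1 was below every adult. The adult sums also hold the non-junction reads of novel_circ_0004909, which are given for no calf. If the libraries were treated with RNase R, non-junction reads do not measure linear transcripts directly, and the shares are then uncertain.

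**Figure D4:**
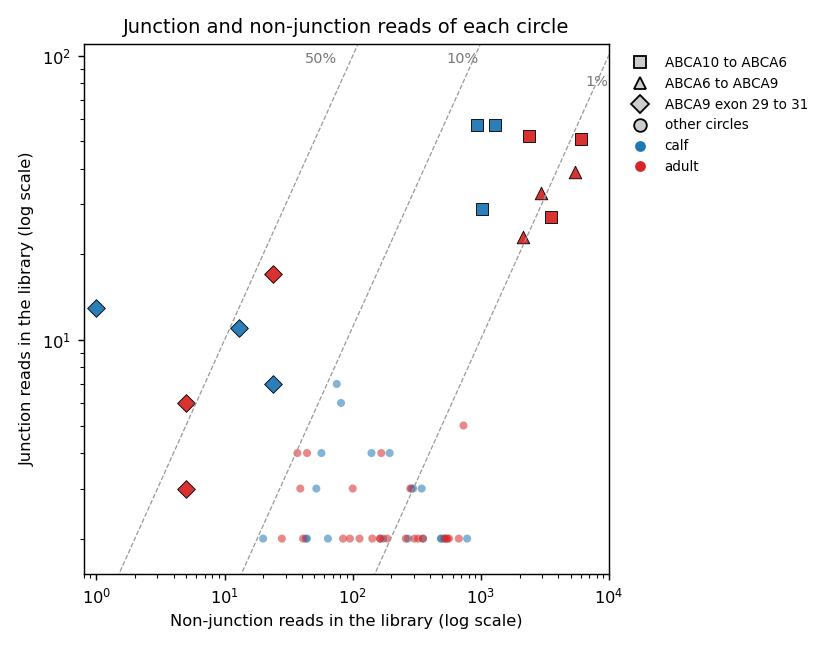
Junction reads (y axis, log scale) against non-junction reads (x axis, log scale) of each circle in each library that detected it, calves in blue and adults in red; dashed lines mark junction shares of 50%, 10% and 1%. The ABCA10 to ABCA6 circle (squares) moves right from calves (934 to 1295 non-junction reads) to adults (2382 to 6076), and the ABCA9 exon 29 to 31 circle (diamonds) lies between 22.6% and 92.9%.

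The circRNAs outside the cluster whose log2 CPM over the 6 libraries followed the summed cluster reads most closely were taken by Pearson's r among 660 tested circRNAs. A METTL25 circle, novel_circ_0010963, had r = 0.997, with 11, 12 and 7 reads in the calf libraries and 14, 18 and 10 in the adult libraries. Next came a circle of ENSBTAG00000037452 and PNP, novel_circ_0000196 (r = 0.979), and circles of WHAMM, novel_circ_0006188 (0.968), SETD3, novel_circ_0006430 (0.948), and MAPK8, novel_circ_0008404 (0.931). All 5 had their lowest calf value in calf 3, as the cluster did. The points are 6 libraries that share depth and tissue makeup, and with 660 circRNAs and 6 points high values of r are no evidence of a link.

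Circles of the other ABC transporter genes were looked at for comparison, as junction reads summed per host gene. Of 719 host genes tested, 42 (5.84%) were higher and 47 (6.54%) lower in adults. Of 44 other ABC genes 13 had a single-gene circle and 4 were tested, with 0 higher and 0 lower by edgeR, 0 by DESeq2 and 0 by limma-voom, although 3 had an unadjusted p under 0.05. The median log2 change of the 4 was 0.33, against 0.01 over all host genes. TAP2, a subunit of the peptide transporter of antigen presentation, had 100, 90 and 132 reads in the calf libraries and 230, 192 and 151 in the adult libraries. The change, 0.75 ± 0.26 on the log2 scale (SE), missed the threshold (edgeR adjusted p = 0.0753) and met it without calf 3 (0.0393) and without adult 3 (0.0358).

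ABCA1, the cholesterol exporter, had 18, 18 and 21 reads in the calf libraries and 7, 2 and 16 in the adult libraries, with adult 3 close to the calves. The change, -1.25 ± 0.57 on the log2 scale (SE), had an edgeR adjusted p of 0.171, and of 0.0285 without adult 3. Of the 9 neighbouring genes, 2 had single-gene circles. ABCA5, of the same gene group, had 0, 3 and 3 reads in the calf libraries and 4, 2 and 0 in the adult libraries. ARSG, a sulfatase gene, had 2 reads in adult 2 and 0 elsewhere. ABCA8, also of this group, had no single-gene circle.

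Among genes of sterol and phospholipid handling, 24 of 36 had a single-gene circle and 11 were tested, of which 1 was higher and 1 lower in adults, with a median log2 change of 0.45. SCP2, which codes for a sterol carrier protein of peroxisomes, rose from calf values of 23, 19 and 28 reads to adult values of 167, 139 and 68 (log2 change 2.33 ± 0.36 SE, edgeR adjusted p = 0.00197) and passed in all 12 alternatives. OSBPL11, which codes for an oxysterol-binding-protein-related lipid transfer protein, fell from 61, 79 and 58 reads to 44, 33 and 36 (log2 change -0.88 ± 0.26 SE, edgeR adjusted p = 0.0483). It passed in 4 of 12 alternatives, and its adjusted p was 0.112 with DESeq2, 0.115 without a filter, 0.0773 with the replicate number as a block and 0.16 without calf 2. Without calf 1, calf 3, adult 2 or adult 3 it was 0.0888, 0.0581, 0.183 and 0.0701.

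Circles of cell type marker genes also differed between the ages. Fibroblast and adipose progenitor markers, 8 of 17 with circles, summed to 53.7 to 253 CPM in calves and 740 to 1080 CPM in adults, with no circle of PDGFRA, COL1A2, COL3A1, LUM or CD34. Most of the adult reads of this list were those of VCAN, 39, 22 and 24 of 41, 35 and 38. COL6A3 went the same way, with 0, 0 and 3 reads in calves and 2, 11 and 12 in adults. PDGFRB in adult 2 and DPT in adult 3 had 2 reads each and none elsewhere. COL1A1, DCN, FBN1 and DPP4 were read in calves only, with 2 or 3 reads in a library. Macrophage and other immune markers, 4 of 10 with circles, summed to 161 to 674 CPM in calves and 3235 to 12034 CPM in adults, with CD68, MRC1, CSF1R and PTPRC at 0. Of the 186, 153 and 481 adult reads of this list ADGRE1 had 44, 72 and 457, and CD5L had 140, 77 and 21. MSR1 had 4, 2 and 0 reads in calves and 2, 2 and 0 in adults. CD163 had 0, 0 and 2 reads in calves and 0, 2 and 3 in adults. Adipocyte markers, 9 of 16 with circles, summed to 4380 to 6065 CPM in calves and 3023 to 3637 CPM in adults, with LEP, FABP4, CIDEC, LIPE and FASN at 0.

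Endothelial markers, 7 of 10 with circles, overlapped at 10052 to 18539 CPM in calves and 14186 to 19789 in adults. BTNL9 gave most of these reads, 647, 676 and 314 of 690, 725 and 358 in calves. In adults it gave 592, 857 and 513 of 648, 936 and 567. VWF was read in adults only, with 10, 18 and 2 reads. FLT1 went the other way, with 21, 23 and 17 reads in calves and 14, 16 and 17 in adults. Smooth muscle and pericyte markers, 5 of 6 with circles, had 53.7 to 101 CPM in calves and 369 to 677 in adults, with RGS5 at 0. Skeletal muscle markers, 5 of 10 with circles, had 297 reads in adult 2 and 0 to 3 in the other libraries, with MYH1, MYH2 and CKM at 0. Nerve markers had 4 reads in calf 2 and none elsewhere, and epithelial markers had none. In the host gene test the 1 fibroblast marker tested, VCAN, and both immune markers tested, ADGRE1 and CD5L, were higher in adults by edgeR, the immune ones not by limma-voom. Of 4 adipocyte markers tested 3 were lower in adults (PPARG, PDE3B and ACACA), 3 by DESeq2 and 2 by limma-voom. The other one, CD36, a fatty acid transporter gene, had 34, 50 and 56 reads in the calf libraries and 90, 76 and 105 in the adult libraries, the opposite direction, without passing (log2 change 0.87 ± 0.27 SE, edgeR adjusted p = 0.0535). It passed when calf 3 (0.0379) or adult 2 (0.0441) was left out. The PPARG call was lost when calf 3 was left out (edgeR adjusted p = 0.0905) and likewise for adult 1 (0.076), for adult 2 (0.0551) and for adult 3 (0.061), and those of PDE3B and ADGRE1 when calf 2 was left out (0.0693 and 0.0541). Of 3 endothelial markers 0 passed by edgeR, DESeq2 or limma-voom, and 0 had an unadjusted p under 0.05. The part of these markers in the higher adult level of novel_circ_0004909 was not tested. Without adult 2 its log2 change was 7.85, against 7.94 with all libraries, values that depend on the prior count because the calves are at 0.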

How the data were processed

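Junction reads of 14274 circRNAs in 6 libraries (3 calf, 3 adult) are whole-number counts as the authors deposited them. The deposited columns headed TPM are CPM, scaled to the junction reads of a library with no length term; they equalled recomputed CPM within a share of 4.77e-15. Other reads, under the header non-junction read, and positions come from the deposited annotation, where end minus start equalled the length in all 14274 entries; no source used here defines non-junction reads. The authors' deposited comparison gives, per the file headers, a mean of scaled reads for each age (a signal), a log2 fold change, and p-values before and after adjustment; only 1 member is in it. Trim Galore, Cufflinks, TopHat and TopHat2 2.0.14 appear in the submitters' processing notes. The circRNA caller, genome build and strand setting are also not given there. A deposited length list and the enrichment tables were not used, and 0 columns were unassigned.

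Junction counts were fitted by edgeR 4.0.16 under R 4.3.3 with its quasi-likelihood test (TMM factors 0.964 to 1.03, filterByExpr with age as the group, Benjamini-Hochberg threshold 0.05) over all circRNAs, and over host genes from circles annotated to 1 gene. The script was tested on simulated data. DESeq2 1.42.0 and limma-voom (limma 3.58.1) were alternatives, as were scaling, filters, leaving out each library, and the circles counted. Replicate libraries of an age differed by a chi-square of 1.9 to 4.96 per degree of freedom, so no library was counted as a copy of another. Likeness used log2 CPM with a prior count of 2. Members with 20 or more reads, or read in all libraries of an age and none of the other, were named singly, with list genes that passed, neighbours with a circle and the 5 circles most like the cluster; the others named were chosen after their values were seen. PLIN1 was matched through an older symbol in RefSeq's ARS-UCD2.0 gene table, whose coordinates were not used. The members, lists and tests were chosen with earlier results of these data known.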

Additional observations from a re-analysis of the deposited data

How the results depend on the processing

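Of the alternatives to values that answer a comparison, 44 stayed within the limits set and 10 moved; for the log2 changes of single members these numbers were 33 and 2. The 126 circRNAs called by edgeR became 202 without a filter on low counts and 71 to 138 when a library was left out, with 71 without calf 1, 74 without calf 2, 82 without adult 1 and 81 without adult 2. The 89 host genes called became 55 to 123, with 55 without calf 2. The log2 ratio of the mean cluster CPM of adults to that of calves was 0.27, and 0.12 to 0.41 when a library was left out. It was -0.21 with single-gene circles only, a setting that leaves out both cross-gene circles. The cross-gene share was 66.5% as a mean of 6 libraries, 64.6% to 69.6% when a library was left out, and 75.8% over circles read in at least 2 libraries, since most single-gene circles were read in 1. The junction share of 2.06% was 1.65% to 2.29% when a library was left out. By Spearman's rho 3 of the 5 circRNAs most like the cluster were the same. The log2 change of novel_circ_0004909 was 5.92 with limma-voom, and that of novel_circ_0004925 was -1.10 without adult 2. Where no cause is given, the cause was not tested.

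The replicate numbers in the titles did not pair the libraries: deviations of same-numbered libraries from their group means correlated at -0.05, 0.07 and 0.02. With the replicate block 56 circRNAs and 101 host genes were called, and the log2 change of novel_circ_0004909 was 7.94. Depth limits the 34 members under 20 reads, whose reads give no test.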
